A study of Homo sapiens with 24 samples.

Results

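The comparison set HCT116 cells carrying an added estrogen receptor beta against parental HCT116 cells, both in normoxia with 10 nM 17β-estradiol, a natural hormone that activates estrogen receptors. It rests on 6 of the 24 arrays of the series, 3 for each group, chosen by their titles alone, and each gene is represented by its brightest probe set over all arrays, which gave 18239 genes. HCT116 is an established human colon cancer line. In the ESR2 cells full-length ESR2 with a HaloTag, a protein tag at its N terminus, came from a lentiviral vector that also encodes GFP and puromycin resistance; they were selected with 1 µg/ml puromycin and used as a population, in which over 80% of cells expressed GFP after 3 infections. The parental group is labelled only as HCT116, and parental cells with an empty vector are not among the groups analysed here, so receptor, tag, vector and selection cannot be told apart. Cells given estradiol were grown, before and during treatment, in phenol-red-free medium with charcoal-stripped serum, which holds little steroid. Beside them stand, for comparison, ESR2 and parental cells in normoxia without estradiol and in hypoxia with estradiol, 3 arrays each.

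Estrogen receptor beta, encoded by ESR2, is a nuclear receptor that binds estradiol, pairs into dimers and regulates genes by binding DNA at estrogen response elements or through partners such as AP-1 and SP1. It is the main estrogen receptor of normal colon epithelium and is known to be lower in many colorectal tumours.

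Values are RMA log2 signals, on which a difference of 1 is a factor of 2, and differences are ESR2 minus parental cells with their SE from limma, a linear model fitted to all genes. A gene was called at an adjusted p (Benjamini-Hochberg over all genes) under 0.05, and "rose" and "fell" are used of called genes. The labels name no separate cultures for the 3 replicates, so the errors may be technical ones, and the number of arrays limits how precise each value can be. RNA came from whole cultures, so a change in every cell and a change in a share of the cells cannot be told apart. The 6 arrays were alike, with medians of 4.080 to 4.101 and a lowest correlation of 0.998 between arrays of a group. Of the ribosomal control probes, the 5′ set of 28S RNA read 11.67 ± 0.01 in ESR2 cells and 12.03 ± 0.02 in parental cells, and that of 18S RNA read 12.54 ± 0.02 in ESR2 cells and 12.68 ± 0.01 in parental cells (SD, n = 3 each); neither overlapped between the groups, and its part in the results was not tested. The 3′ minus 5′ index of control transcripts, which is larger for shorter labelled RNA, was 2.64 ± 0.23 in ESR2 cells and 2.47 ± 0.08 in parental cells (SD, n = 3 each), with overlap, and all 30 leading genes named below kept their call with it as a covariate. Among the other groups, the 3 arrays of hypoxic ESR2 cells with estradiol (index 3.63 ± 0.28, SD, n = 3) and replicate 2 of parental normoxia without estradiol (index 4.09, lowest correlation 0.988) stood apart.

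The ESR2 signal was higher in ESR2 cells. ESR2 read 4.48, 4.35 and 4.41 in ESR2 cells and 3.28, 3.48 and 3.56 in parental cells. All ESR2-cell arrays lay above all parental arrays, by 0.97 on the log2 scale (SE 0.13; limma, adjusted p = 1.49e-05). The parental signals lay under the array medians and those of ESR2 cells not far above them, where RMA compresses differences. Of the 8 probe sets of ESR2, 4 were called higher, by 0.65 to 0.97, and the other 4 had no call. With the 8 averaged the difference was 0.34. Whether the signal came from the added ESR2 or the cells' own was not tested. The other estrogen receptors had no call: ESR1, the gene of estrogen receptor alpha, averaged 3.99 ± 0.08 in ESR2 cells and 3.92 ± 0.03 in parental cells, and GPER1, the membrane estrogen receptor, 5.33 ± 0.07 in ESR2 cells and 5.26 ± 0.12 in parental cells (SD, n = 3 each).

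ESR2 cells and parental cells differed at 2494 genes, 13.7% of those tested. Higher were 1542 genes (8.45%) and lower 952 (5.22%), while the median difference of all genes was -0.01. Another scaling moves this split. Quantile normalization of the gene table gave 1344 higher and 1267 lower genes, and centring each array on its median gave 1183 higher and 1681 lower genes. Most called differences were small. Past 2-fold were 59 of the higher and 12 of the lower genes, and those 71 kept their call and direction when any 1 of the 6 arrays was left out and under both scalings. Of all 2494 called genes 1365 did so when any 1 array was left out. The share called grew with signal. It was 2.37% in the dimmest of 3 equal parts of the genes by mean signal, 14.3% in the middle part and 24.4% in the brightest, and RMA compresses differences of dim genes.

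The gene with the largest rise was GASK1B, which encodes a Golgi membrane glycoprotein. It read 7.91, 7.999 and 8.12 in ESR2 cells and 4.27, 4.62 and 4.66 in parental cells, a rise of 3.50 (SE 0.15; limma, adjusted p = 3.42e-13), or 11.3-fold. MAL2, a membrane protein of apical transport in epithelial cells, read 7.84, 7.71 and 7.62 in ESR2 cells and 4.62, 4.38 and 4.19 in parental cells (3.33, SE 0.17). Both lay well above the array median in ESR2 cells and close to it in parental cells. GDF15, a stress-induced cytokine of the TGF-β family, read 6.77, 6.80 and 6.73 in ESR2 cells, against 3.68, 3.68 and 3.50 in parental cells (3.14, SE 0.16). SMARCA1, an ATPase of ISWI chromatin remodellers, read 6.93, 7.08 and 7.10 in ESR2 cells, against 3.94, 4.25 and 3.98 in parental cells (2.98, SE 0.16). The parental signals of GDF15 lay under the array medians, and those of SMARCA1 close to them, where RMA compresses differences. TP53INP1, a protein that acts in autophagy and cell death, read 7.04, 7.29 and 7.42 in ESR2 cells, against 4.63, 4.88 and 4.70 in parental cells (2.51, SE 0.16). CXCL10, an interferon-induced chemokine, read 6.32, 6.90 and 6.69 in ESR2 cells, against 4.26, 4.40 and 4.47 in parental cells (2.26, SE 0.13). Neither gene's groups overlapped.

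Among the other genes with large rises was PDE4B, a phosphodiesterase that breaks down cAMP, with 7.75, 7.89 and 7.79 in ESR2 cells, against 5.63, 5.80 and 5.78 in parental cells. MAOB, a monoamine oxidase of the outer mitochondrial membrane, read 7.50, 7.58 and 7.53 in ESR2 cells, against 5.83, 5.54 and 5.59 in parental cells. Their rises were 2.07 (SE 0.12) and 1.89 (SE 0.09). ADIRF, a regulator of fat cell formation, rose by 1.97, DIRAS3, an imprinted Ras-like GTPase that restrains growth, by 1.83, TRIM2, a ubiquitin ligase, by 1.81, and FAM111A, a protease that clears protein bound to DNA, by 1.80. CDKN1A, which encodes the cell cycle inhibitor p21, read 9.39, 9.67 and 9.65 in ESR2 cells, against 7.83, 7.92 and 7.97 in parental cells (1.66, SE 0.10). CD24, a cell surface glycoprotein, read 8.10, 8.10 and 8.16 in ESR2 cells, against 6.29, 6.54 and 6.55 in parental cells (1.66, SE 0.08). SCG2, a secretogranin of secretory granules, rose by 1.63 (SE 0.10). For all 15 genes with the largest rises the ESR2 arrays lay above the parental arrays, with adjusted p between 3.42e-13 and 2.27e-08 (limma).

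The largest fall was that of NT5E, the ecto-enzyme CD73, which makes adenosine from AMP outside the cell. It read 5.72, 5.86 and 5.74 in ESR2 cells, against 7.78, 7.75 and 7.85 in parental cells, a difference of -2.02 (SE 0.16; limma, adjusted p = 6.31e-09). DCLK1, a microtubule-associated kinase that marks tuft cells in the intestine, read 4.02, 3.96 and 3.89 in ESR2 cells, against 5.62, 5.62 and 5.67 in parental cells (-1.68, SE 0.10). The ESR2-cell values of DCLK1 lay around the array median. F3, tissue factor, which starts blood coagulation, read 7.47, 7.50 and 7.38 in ESR2 cells, against 8.85, 8.69 and 8.71 in parental cells (-1.30, SE 0.08). CCN1, a matricellular protein and target of YAP, read 6.41, 6.47 and 6.42 in ESR2 cells, against 7.99, 7.54 and 7.51 in parental cells (-1.25, SE 0.15), and CCN2, connective tissue growth factor, differed by -1.01 (SE 0.12). For each of these genes the groups were apart. KLF10, a TGF-β-induced transcription factor, read 8.53, 8.54 and 8.49 in ESR2 cells, against 9.70, 9.56 and 9.56 in parental cells (-1.09, SE 0.09). LMNB1, lamin B1 of the nuclear envelope, read 6.80, 6.48 and 6.79 in ESR2 cells, against 7.77, 7.59 and 7.59 in parental cells (-0.96, SE 0.18). GPAT2, an acyltransferase of glycerolipid synthesis, SYTL3, a synaptotagmin-like protein of vesicle transport, BCAR3, an adaptor of cell adhesion signalling, SLC35F5, a member of the solute carrier family, KRTAP2-3, a keratin-associated protein, ANTXR2, a receptor of anthrax toxin and collagen, CBLL1, a ubiquitin ligase of E-cadherin, and ANXA3, an annexin, fell by 0.97 to 1.31. KRTAP2-3 belongs to a family of near-identical genes, among which its probes may not choose.

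**Figure D1:**
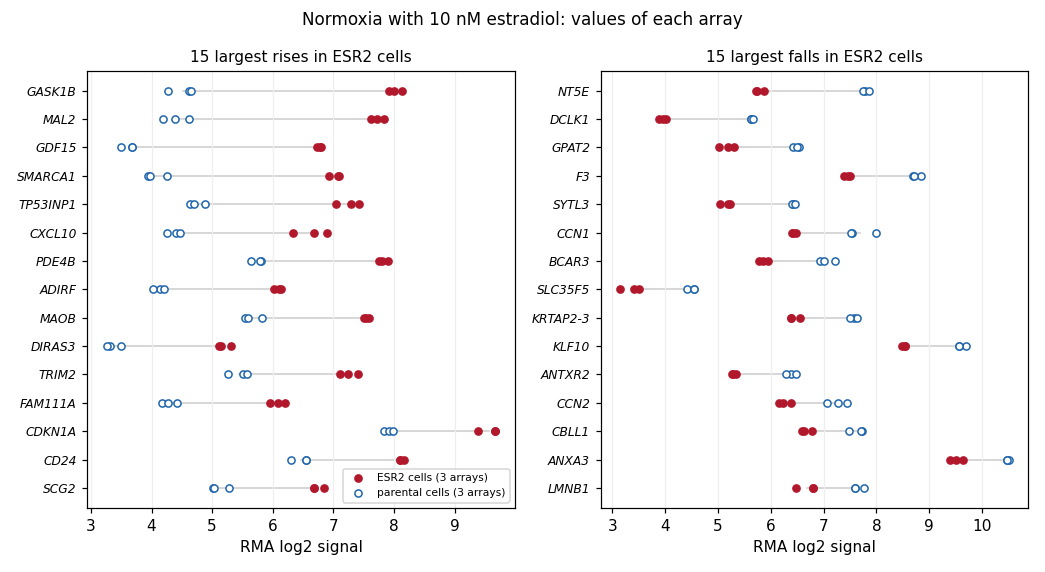
Signals of the 30 leading genes on each array in normoxia with 10 nM estradiol; the x axes give the RMA log2 signal, filled red points are the 3 arrays of ESR2 cells, open blue points the 3 arrays of parental cells, and grey lines join the group means. The 15 genes on the left have every ESR2-cell array above every parental array, by 3.50 on average for GASK1B, and the 15 on the right have every ESR2-cell array below, with -2.02 for NT5E.

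These 30 genes were taken for having the largest differences among called genes whose groups do not overlap, so their separation is part of how they were chosen. Across all genes 37.0% had groups that do not overlap. More than 1 probe set was present for 23 of the 30. In 16 of those every probe set was called in the same direction, and for 0 of the 30 was a probe set called in the other direction. Averaging a gene's probe sets left 9 of the 30 with a difference over 1.5 times smaller, such as 2.07 for GASK1B, 0.78 for PDE4B and -0.36 for DCLK1, and moved 36 of the 94 other called genes of the naming rule by over 1.5 times.

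Gene lists gave the wider picture. Each list is read beside the share of all genes called, 8.45% higher and 5.22% lower, and beside the median of all genes, -0.01. That share is not matched for signal, and genes called either way were 2.37% of the dimmest part and 24.4% of the brightest. A list of bright genes can thus exceed it without a trait of the list. The lists were chosen with earlier results of these data known. No list was tested as a set. Members outside the 4 of each list with the smallest p-values are named for having passed the threshold and were chosen after their values were seen.

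**Figure D2:**
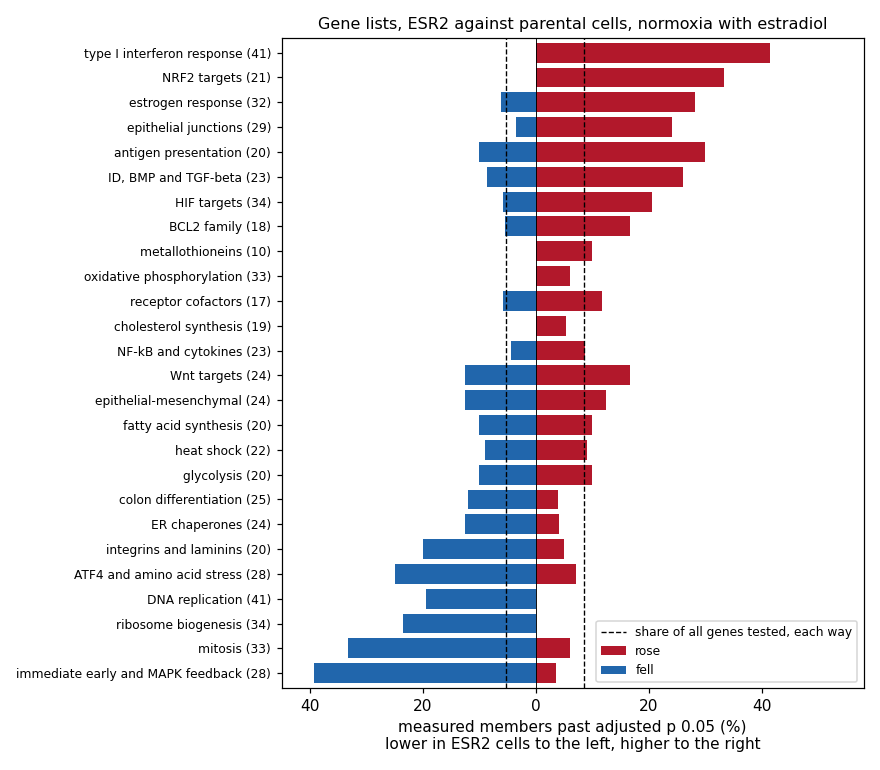
Share of the measured members (number in brackets) of each list reported here that passed the threshold; the x axis is in percent, with genes lower in ESR2 cells to the left in blue and higher to the right in red, and the dashed lines mark the shares of all genes tested, 8.45% higher and 5.22% lower. Of the lists shown, type I interferon has 17 of 41 members to the right, and immediate early and mitosis have 11 of 28 and 11 of 33 to the left. The dashed lines are not matched to the signal of a list's members.

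Among 18 measured members of the BCL2 family, which sets the balance of survival and death of cells, BBC3, which encodes PUMA, BAX and BIK rose, PMAIP1, which encodes NOXA, fell (-0.45, SE 0.10), and 14 did not pass (median -0.06). BBC3 differed by 0.52, or by 0.34 with probe sets averaged. Its call held in all 6 fits that leave out an array, and that of BIK in 3 of the 6. BIK and BAX had no call with quantile normalization. BAX, an apoptosis effector, differed by 0.58 (SE 0.16; limma, adjusted p = 0.0173) but kept its call in 2 of the 6 fits that leave out an array.

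The type I interferon response had 41 measured genes, of which 17 rose, 0 fell and 24 missed the threshold (median 0.23). Beside CXCL10, the sensors of viral RNA were among them. IFIH1, which encodes the sensor MDA5, read 5.98, 6.15 and 6.14 in ESR2 cells, against 4.17, 4.60 and 4.70 in parental cells (1.60, SE 0.18). RIGI, the related sensor, rose by 0.83 (SE 0.16). With probe sets averaged IFIH1 rose by 0.86. The effectors IFIT3 and IFIT1, which bind foreign RNA, read 5.91, 5.65 and 5.78 and 9.45, 9.47 and 9.45 in ESR2 cells, against 4.54, 4.64 and 4.60 and 8.45, 8.61 and 8.64 in parental cells, rises of 1.19 (SE 0.12) and 0.89 (SE 0.08). OASL, an antiviral protein like the oligoadenylate synthetases, and CXCL11, a chemokine that shares its receptor with CXCL10, rose by 1.02 and 1.00. PARP9 and PARP14, ADP-ribosyltransferases, IFIT2, HERC5, the ligase that attaches ISG15, IFI6 and IFITM1 rose by 0.49 to 0.86. Calls of the other 4 members that rose, IRF9, IFI35, USP18 and ISG15, ended in at least 1 of the 6 fits that leave out an array, and 13 of the 17 kept theirs in all 6. With arrays centred on their medians 14 of the list rose, and with quantile normalization 15.

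The promoters of the 4 interferon genes with the smallest p-values are shown because they carry the core motif of the interferon-stimulated response element, bound by ISGF3 and interferon regulatory factors. They are from RefSeq (GRCh38.p14), run from 250 bases before to 50 bases after the start site, are written 5′ to 3′ on the gene's strand, and have in capitals each match on either strand to GAAANNGAAA, where matches may overlap.
CXCL10 (chr4:76023448-76023747, minus strand): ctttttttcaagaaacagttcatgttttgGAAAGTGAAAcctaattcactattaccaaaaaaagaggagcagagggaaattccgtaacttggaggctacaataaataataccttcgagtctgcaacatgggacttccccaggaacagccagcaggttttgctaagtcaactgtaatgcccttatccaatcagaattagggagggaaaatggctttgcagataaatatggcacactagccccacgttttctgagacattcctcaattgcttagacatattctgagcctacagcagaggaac
IFIH1 (chr2:162318635-162318934, minus strand): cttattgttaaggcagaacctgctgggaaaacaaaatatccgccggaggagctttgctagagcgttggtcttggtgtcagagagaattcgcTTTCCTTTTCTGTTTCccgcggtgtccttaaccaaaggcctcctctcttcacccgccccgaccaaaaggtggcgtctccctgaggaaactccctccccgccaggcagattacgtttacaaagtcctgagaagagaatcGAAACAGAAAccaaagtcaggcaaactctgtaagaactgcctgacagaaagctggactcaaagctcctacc
IFIT3 (chr10:89327747-89328046, plus strand): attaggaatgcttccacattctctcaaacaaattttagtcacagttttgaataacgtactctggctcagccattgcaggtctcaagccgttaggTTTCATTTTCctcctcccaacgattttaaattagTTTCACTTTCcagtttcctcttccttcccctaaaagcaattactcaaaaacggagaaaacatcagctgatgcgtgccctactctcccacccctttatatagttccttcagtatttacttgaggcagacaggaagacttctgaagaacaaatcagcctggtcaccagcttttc
IFIT1 (chr10:89392373-89392672, plus strand): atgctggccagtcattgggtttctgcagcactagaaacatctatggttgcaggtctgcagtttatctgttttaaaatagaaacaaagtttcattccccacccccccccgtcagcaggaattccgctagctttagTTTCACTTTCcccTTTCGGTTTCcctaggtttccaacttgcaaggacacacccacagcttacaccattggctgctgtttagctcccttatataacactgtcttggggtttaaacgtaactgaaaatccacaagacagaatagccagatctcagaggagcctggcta

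This motif was found in 9 of the 14 promoters available for the members that rose and in 12 of the 19 for those that did not pass, 64.3% and 63.2%, against 3.04% of the promoters of all tested genes. The share was thus close in members that rose and members that did not. The full palindrome of the estrogen response element, GGTCANNNTGACC, was in 0 of 1270 promoters of genes that rose and 0 of 780 of genes that fell, and in 4 of 14492 promoters of all tested genes. With a palindrome this rare, 0 matches in sets of this size cannot tell called genes from other genes. The window holds 300 bases only, and no match says nothing about binding elsewhere.

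Of 20 measured genes of antigen presentation 6 rose, 2 fell and 12 missed the threshold, with a median of 0.22. HLA-DRA, the alpha chain of the class II molecule HLA-DR, read 6.06, 6.01 and 5.98 in ESR2 cells, against 4.57, 4.54 and 4.36 in parental cells (1.53, SE 0.09). HLA-F, a class I molecule, rose by 1.15 (SE 0.08), although class I genes are alike in sequence and probes may cross. PSMB9, a subunit of the immunoproteasome, rose by 0.74, TAP1, which moves peptides into the endoplasmic reticulum, by 0.44, TAPBP, which loads them, by 0.47 and ERAP1, which trims them, by 0.46 (kept in 5 of the 6 fits that leave out an array). Those that fell were TAP2 (-0.32, SE 0.10) and CIITA, the activator of class II genes (-0.22, SE 0.07), and neither kept its call in all fits that leave out an array. With probe sets averaged HLA-DRA rose by 0.95, HLA-F by 0.32 and PSMB9 by 0.45. Of 23 measured genes of NF-kB and cytokines 2 rose and 1 fell.

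Among genes of early growth factor response more members fell than rose. Of 28 measured immediate early and MAPK feedback genes 11 fell, 1 rose and 16 missed the threshold (median -0.27). EGR1, a transcription factor induced by ERK signalling, read 8.74, 8.82 and 8.70 in ESR2 cells, against 9.51, 9.43 and 9.48 in parental cells (-0.72, SE 0.11). IER2, another immediate early gene, differed by -0.80 (SE 0.12), and the AP-1 subunits JUN and FOS by -0.70 and -0.49. DUSP4 and DUSP5, phosphatases that switch off ERK, read 8.84, 8.83 and 8.84 and 8.79, 8.80 and 8.73 in ESR2 cells, against 9.44, 9.39 and 9.30 and 9.42, 9.39 and 9.38 in parental cells (-0.54, SE 0.06, and -0.63, SE 0.08). DUSP6, a further ERK phosphatase, was the member that rose (0.32, SE 0.08). The groups did not overlap for any of these genes, and the calls of JUN and FOS held in 5 and 4 of the 6 fits that leave out an array. MYC differed by -0.26 (SE 0.07; limma, adjusted p = 0.0066).

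**Figure D3:**
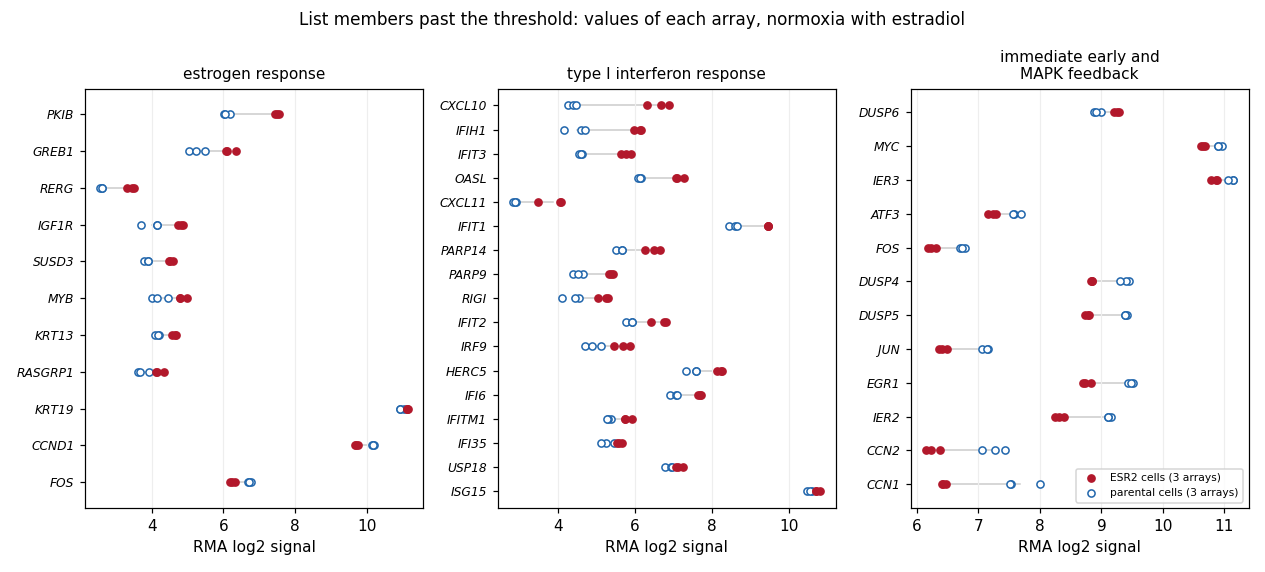
Signals of the called members of the estrogen response, type I interferon and immediate early lists on each array; the x axes give the RMA log2 signal, filled red points are the 3 arrays of ESR2 cells and open blue points the 3 arrays of parental cells, with grey lines between the group means. All 17 interferon genes lie higher in ESR2 cells, by 0.21 for ISG15 up to 2.26 for CXCL10, while 11 of the 12 immediate early genes lie lower, DUSP6 being the exception.

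Among proliferation genes more members fell than rose, and most did not pass. Of 33 measured mitosis genes 11 fell, 2 rose and 20 missed the threshold, with a median of -0.03, and of 41 measured DNA replication genes 8 fell, 0 rose and 33 missed it, with a median of -0.12. CDC25C, the phosphatase that starts mitosis, read 6.42, 6.46 and 6.44 in ESR2 cells, against 7.18, 7.18 and 7.05 in parental cells (-0.70, SE 0.08). BUB1, a kinase of the spindle checkpoint, and KIF2C, a kinesin that takes microtubules apart, differed by -0.39 and -0.32, while BUB1B, the checkpoint partner of BUB1, rose by 0.44 (SE 0.07). CDC25A, which opens S phase, differed by -0.41 (SE 0.08), CDC6 and CDC45, which load and start the replicative helicase, by -0.37 and -0.33, and RFC5, a clamp loader subunit, by -0.30. When 1 array was left out, 4 of the 8 replication genes and 6 of the 11 mitosis genes kept their calls in all 6 fits. With probe sets averaged CDC45 had -0.32 and no call. Of 34 genes of ribosome biogenesis 8 fell and 0 rose (median -0.14), led by PNO1 and UTP4, factors of the small ribosomal subunit, with -0.35 and -0.49. Of those 8 genes 4 kept their calls in all 6 fits that leave out an array. Of 28 genes of the ATF4 and amino acid stress response 7 fell and 2 rose (median -0.09), among them DDIT3, which encodes CHOP, TRIB3 and ATF3 with -0.54, -0.37 and -0.38. In these 6 fits 4 of the 7 that fell and 1 of the 2 that rose always kept their calls. With probe sets averaged TRIB3 had -0.16 and no call, and ATF3 fell by 0.21.

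Genes that estrogen regulates in breast cells were read next, since estradiol was present in both groups. The list had 32 measured members: 9 rose, 2 fell, and the other 21 missed the threshold (median 0.09). Of the 9, 6 kept their call in all 6 fits that leave out an array. In the same comparison without estradiol 8 members were called higher and 5 lower, against 1780 and 1616 of all 18239 genes. Within a cell type, normoxia with against without estradiol called 0 genes in ESR2 cells and 2 in parental cells. Genes at an unadjusted p under 0.05 (limma) numbered 981 in ESR2 cells and 2524 in parental cells. The medium of the cultures without estradiol is not given, and replicate 2 of the parental ones stands apart. PKIB, an inhibitor of protein kinase A, read 7.45, 7.51 and 7.54 in ESR2 cells, against 6.02, 6.19 and 6.06 in parental cells (1.41, SE 0.16). GREB1, a cofactor of estrogen receptor alpha and a widely used estrogen target, read 6.09, 6.08 and 6.35 in ESR2 cells, against 5.04, 5.23 and 5.48 in parental cells (0.93, SE 0.14). Both were higher on every ESR2-cell array. With probe sets averaged PKIB rose by 1.42 and GREB1 by 0.28. RERG, a Ras-like growth inhibitor, rose by 0.82 (SE 0.09), or by 0.42 with probe sets averaged. SUSD3, a cell surface protein, rose by 0.67 (SE 0.08), and MYB, a transcription factor, by 0.66 (SE 0.11). The breast cell targets TFF1, a trefoil peptide, and PGR, the progesterone receptor, had no call, at 3.82 ± 0.15 and 2.98 ± 0.07 in ESR2 cells and 3.75 ± 0.08 and 2.99 ± 0.10 in parental cells (SD, n = 3 each), all under the array medians. The 2 members that fell were FOS and CCND1, cyclin D1 (-0.47, SE 0.13), whose calls each held in 4 of the 6 fits that leave out an array. Of 17 receptor cofactors, FOXA1, a pioneer factor that opens chromatin for nuclear receptors, rose by 0.67 (SE 0.13), with no call when probe sets are averaged. EP300, a histone acetyltransferase, differed by -0.57 (SE 0.15; limma, adjusted p = 0.0115), with no call without replicate 1 of the ESR2 cells.

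Other lists held single strong members. Of 21 targets of NRF2, the regulator of antioxidant genes, 7 rose and 0 fell (median 0.22). NQO1, a quinone reductase, read 10.74, 10.77 and 10.70 in ESR2 cells, against 9.72, 9.74 and 9.70 in parental cells (1.02, SE 0.06), and ABCC2, an exporter of conjugated drugs, rose by 0.89 (SE 0.08). Only NQO1, ABCC2 and PGD, an enzyme of the pentose phosphate pathway, kept their calls in all 6 fits that leave out an array. Of 29 genes of epithelial junctions 7 rose and 1 fell (median 0.09): DSC2 and JUP of desmosomes rose by 0.74 and 0.65, and CDH1, E-cadherin, by 0.69, with 6.89, 6.72 and 6.97 in ESR2 cells, against 6.18, 6.21 and 6.12 in parental cells. With probe sets averaged DSC2 rose by 0.44 and CDH1 by 0.36. The epithelial-mesenchymal list had 3 members higher and 3 lower of 24. FN1, fibronectin, and S100A4 rose by 1.14 and 0.78, FN1 with 0.26 and no call when probe sets are averaged. The other member that rose was VIM, vimentin, a mesenchymal marker, whose call held in all 6 fits that leave out an array. AXL, a receptor kinase, PLAU, urokinase, and SNAI2, a repressor of E-cadherin, fell by 0.93, 0.60 and 0.41. ITGB8, an integrin that activates TGF-β, rose by 1.57 (SE 0.18) while ITGA6 and ITGB5 fell by 0.63 and 0.55. With probe sets averaged ITGB8 rose by 0.47. Of 25 measured genes of colon differentiation 3 fell, 1 rose and 21 missed the threshold. KLF5 and KLF4, transcription factors of the intestinal crypt and surface, fell by 0.85 and 0.61, and SLC26A2, a sulfate transporter, rose by 0.66. SOX9 and AXIN2, targets of Wnt signalling, rose by 0.88 and 0.61 in a list of 24 with 4 higher and 3 lower members. With probe sets averaged SOX9 rose by 0.77 and AXIN2 by 0.23.

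Of 34 targets of hypoxia-inducible factor 7 rose and 2 fell, with a median of 0.00 whose sign depends on the scaling. In all 6 fits that leave out an array, 6 of the 7 that rose and 0 of the 2 that fell kept their calls. ADM, which encodes adrenomedullin, read 7.81, 7.84 and 7.57 in ESR2 cells, against 6.83, 6.88 and 7.03 in parental cells (0.82, SE 0.10), and BNIP3L, a receptor of mitophagy, rose by 0.66. HIF1A itself differed by 0.26 (SE 0.09; limma, adjusted p = 0.0555). With probe sets averaged ADM rose by 0.64 and BNIP3L by 0.34. Of 20 glycolysis genes 2 were higher and 2 lower, 20% called either way against 13.7% of all genes. Neither of the 2 lower ones kept its call in all 6 fits that leave out an array. Of 33 oxidative phosphorylation genes 2 were higher and 0 lower, 6.06% called. One of 19 cholesterol synthesis genes passed, TM7SF2, a sterol reductase, which rose by 0.67 (SE 0.09).

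Markers of other cells were looked at beside these lists. All 10 fibroblast markers lay under the array medians in both groups and 0 were called. Of 9 leukocyte markers LYZ was higher and CD68 lower, with calls that ended when some arrays were left out, and the other 7 had no call. The list's summed linear signal was 115 to 118 in ESR2 cells and 129 to 137 in parental cells. HEK293T cells packaged the virus. Of 8 markers of that line TBX18 was higher by 0.37 (SE 0.08), with 0.15 and no call when probe sets are averaged, and their summed linear signal was 138 to 140 in ESR2 cells and 127 to 129 in parental cells. Colon epithelial markers summed to 4080 to 4501 in ESR2 cells and 4094 to 4250 in parental cells, with CDH1 higher and KRT18 and CDH17 lower, of which KRT18 and CDH17 lost their calls when some arrays were left out. Of these 12 markers 6 lay under the array medians in each group, while the brightest averaged 11.17 in ESR2 cells and 11.12 in parental cells.

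The same comparison without estradiol asks whether the cell types also differ where no estradiol was added. The medium of those cultures is not given, so whether they held other estrogens is not known. This comparison called 3396 genes, 18.6%. All 71 genes called past 2-fold with estradiol were also called in the same direction without it. GASK1B differed by 3.50 with and 3.46 without estradiol, GDF15 by 3.14 and 3.26, CDKN1A by 1.66 and 1.43, CXCL10 by 2.26 and 2.17, and NT5E by -2.02 and -2.05. The leading genes thus differed between the cell types in either condition. Of the genes higher with estradiol 1061 were also higher without it, 68.8% of the 1542 and 59.6% of the 1780 higher without it. Of the genes lower with estradiol 660 were also lower without it, 69.3% of the 952 and 40.8% of the 1616 lower without it, and 0 genes were called in opposite directions. The comparisons share no array but share 1 estimate of the spread. Across the 18239 genes the differences correlated at 0.75 (Pearson) and 0.58 (Spearman), and genes are not independent replicates.

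The test of the change with estradiol, the difference with minus that without, called 0 genes (0% of 18239; limma), with 1230 genes at an unadjusted p under 0.05 and a lowest adjusted p of 0.215. For 69 of the 71 genes past 2-fold its 95% interval lay within 1 log2 unit of 0. The median half-width of that interval over all genes was 0.26, before any adjustment for the number of genes, and no change passed the adjusted test, the largest being 0.94 and -0.84. With array weights, an alternative in limma that gives less weight to deviant arrays, 29 genes were called. ESR2 itself changed by -0.07 (95% interval -0.46 to 0.32). PKIB had the largest change among the named estrogen targets. It averaged 7.50 ± 0.05 in ESR2 cells and 6.09 ± 0.09 in parental cells with estradiol, and 6.84 ± 0.03 in ESR2 cells and 6.22 ± 0.37 in parental cells without (SD, n = 3 each), a change of 0.80 (95% interval 0.34 to 1.25; limma, adjusted p = 0.672). GREB1 changed by 0.38 (95% interval -0.03 to 0.80). Replicate 2 of parental normoxia, which stands apart, is among the arrays without estradiol. Without it and the hypoxic ESR2 arrays with estradiol, 2905 genes were called without estradiol, 2 genes were called in opposite directions, 0 genes passed for the change with estradiol (limma; 1011 at an unadjusted p under 0.05, lowest adjusted p 0.0736), and the change of PKIB was 0.60. The medium of the untreated cultures is not given in the sources used here, so estradiol and medium cannot be told apart.

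**Figure D4:**
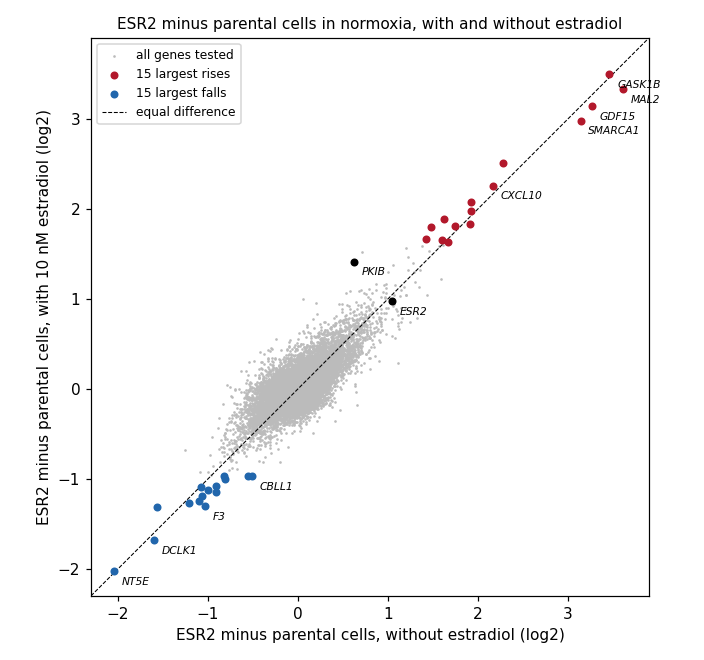
Difference between ESR2 and parental cells in normoxia with 10 nM estradiol (y axis, log2) against the same difference without estradiol (x axis, log2); grey points are the 18239 genes, red and blue points the 15 largest rises and falls with estradiol, black points ESR2 and PKIB, and the dashed line marks equal differences. The leading genes follow the line, GASK1B at 3.50 with and 3.46 without estradiol, and PKIB lies above it at 1.41 and 0.62.

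Differences between the cell types were more numerous in hypoxia. With estradiol, ESR2 and parental cells differed at 8692 genes in hypoxia, 47.7% of those tested, and the difference in normoxia minus that in hypoxia was called for 7043 genes, 38.6%. The 3 hypoxic ESR2 arrays stand apart in their control probe sets, as given above, and form the whole group, so this and the oxygen level cannot be told apart. Of the genes higher in normoxia 741 were also higher in hypoxia, 48.1% of the 1542 and 14.6% of the 5074 higher in hypoxia, while 382 were lower there. Of those lower in normoxia 453 were also lower in hypoxia, 47.6% of the 952 and 12.5% of the 3618 lower in hypoxia, while 241 were higher there. Across genes the differences in the 2 oxygen levels correlated at 0.19 (Pearson).

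Some leading genes kept their difference in hypoxia. SMARCA1 differed by 2.98 in normoxia and 2.64 in hypoxia, GDF15 by 3.14 and 2.66, CDKN1A by 1.66 and 1.76, ADIRF by 1.97 and 1.75, F3 by -1.30 and -1.43, and NT5E by -2.02 and -2.49, none with a called change between the oxygen levels. Others had a called difference in normoxia and no call in hypoxia. CXCL10 averaged 6.64 ± 0.29 in ESR2 cells and 4.38 ± 0.10 in parental cells in normoxia, and 4.48 ± 0.13 in ESR2 cells and 4.33 ± 0.07 in parental cells in hypoxia (SD, n = 3 each), a difference of 2.26 against 0.15. SCG2 averaged 6.74 ± 0.10 in ESR2 cells and 5.10 ± 0.14 in parental cells in normoxia, and 6.37 ± 0.08 in ESR2 cells and 6.43 ± 0.03 in parental cells in hypoxia (SD, n = 3 each). In hypoxia both cell types thus had SCG2 signals near that of ESR2 cells in normoxia. TRIM2 differed by 1.81 in normoxia and 0.31 in hypoxia, CCN1 by -1.25 and 0.07, and CCN2 by -1.01 and 0.22. The changes of these 5 genes between the oxygen levels were all called. Of the 30 leading genes 22 passed for the change between oxygen levels.

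Gene lists were read in the same way. Of all genes tested, 27.8% were higher and 19.8% lower in hypoxia (median 0.07), and 18.1% had a called positive and 20.6% a called negative change, normoxia minus hypoxia. In hypoxia 3 of the 34 targets of hypoxia-inducible factor were higher and 26 lower in ESR2 cells (median -0.76), against 7 higher and 2 lower in normoxia, and 27 had a called positive and 1 a called negative change. DDIT4, an inhibitor of mTORC1, differed by 0.65 in normoxia and -1.95 in hypoxia, and ADM by 0.82 and -0.84. TP53I3, a quinone oxidoreductase that makes reactive oxygen, differed by 1.30 in normoxia and 4.68 in hypoxia. Of the interferon genes 17 rose and 0 fell in normoxia and 25 were higher and 3 lower in hypoxia, with medians of 0.23 and 0.32. ID2, an inhibitor of helix-loop-helix factors, differed by 0.55 in normoxia and 2.98 in hypoxia.

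**Figure D5:**
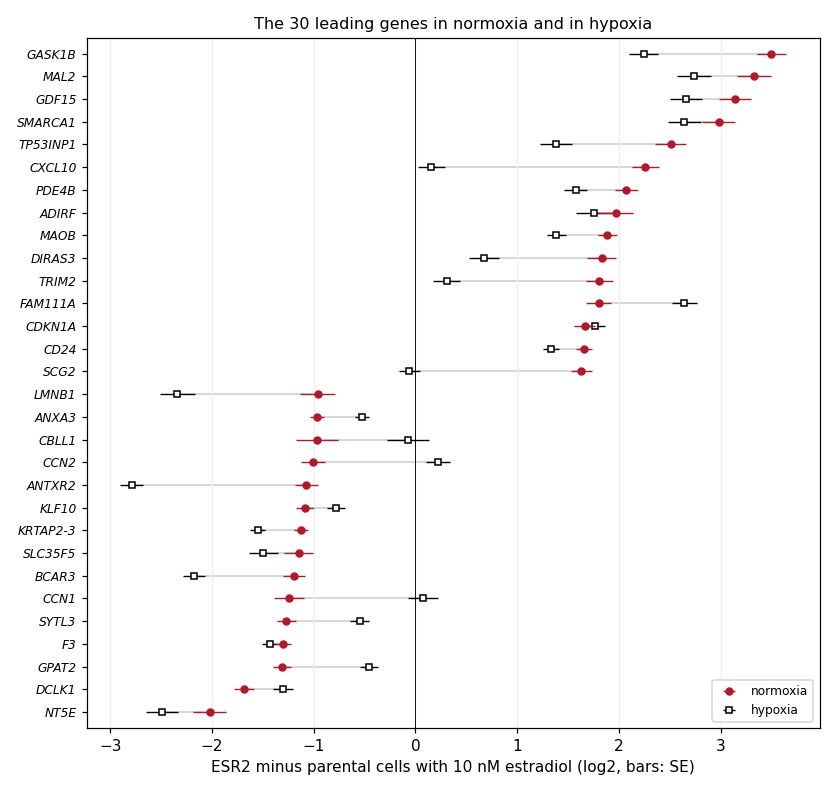
Difference between ESR2 and parental cells with 10 nM estradiol for the 30 leading genes; the x axis is in log2 units, filled red circles are normoxia, open black squares hypoxia, bars the SE from limma, and grey lines join the 2 values of a gene. CXCL10, SCG2, CCN1 and CCN2 differ by 2.26, 1.63, -1.25 and -1.01 in normoxia and by 0.15, -0.06, 0.07 and 0.22 in hypoxia, while GDF15, SMARCA1 and NT5E keep their differences.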

How the data were processed

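RNA of HCT116 cells was hybridised to 24 Affymetrix arrays in 8 groups of 3. The deposited values are log2 signals per probe set, made by the authors with RMA, per the submitters' processing notes; the build behind the probe annotation is not given in the sources used here. RMA subtracts background, equalises the arrays' distributions and summarises probes, so it hides differences in total RNA and compresses those of dim genes. Groups came from sample titles. For each gene symbol the brightest probe set, by its mean signal across the 24 arrays, was kept. limma (version 3.58.1, R 4.3.3) was fitted to all 24 arrays and 8 groups, which share one estimate of the spread, with 16 residual degrees of freedom, and p-values were adjusted by Benjamini-Hochberg over 18239 genes. The model fit was tested on simulated data. Genes named are the 15 largest called rises and the 15 largest called falls whose groups do not overlap, the 4 smallest p-values of each list, ESR2 and its related receptors and targets, and the largest changes between oxygen levels, 8 in each direction. The members and lists were chosen with earlier results of these data known. Alternatives were 2 scalings, a filter on dim genes, other uses of probe sets and other variance models. Further ones were the replicate number as a block, the 3′ minus 5′ index of control transcripts as a covariate, and leaving out arrays. Deviations of arrays with the same number correlated at 0.11, 0.02 and 0.15 in the groups compared, so numbers were not taken as pairs. Promoters were searched on both strands. The results of 1 gene list are not reported here.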

Additional observations from a re-analysis of the deposited data

Results flagged for a closer look

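A difference between conditions that passed its own test was present for 7043 genes, whose ESR2 minus parental difference with estradiol was not the same in normoxia and hypoxia (limma, adjusted p under 0.05). The values below are the difference in normoxia minus that in hypoxia, on the log2 scale, and the 3 arrays of hypoxic ESR2 cells stand apart in their control probe sets. ESR2 itself had 0.52. Among the genes with the largest rises in normoxia, the values were 1.26 for GASK1B, 0.59 for MAL2, 1.13 for TP53INP1, 2.11 for CXCL10, 0.50 for PDE4B, 0.50 for MAOB, 1.16 for DIRAS3, 1.502 for TRIM2, -0.84 for FAM111A, 0.32 for CD24 and 1.69 for SCG2. Among those with the largest falls they were -0.38 for DCLK1, -0.85 for GPAT2, -0.72 for SYTL3, -1.32 for CCN1, 0.98 for BCAR3, 0.43 for KRTAP2-3, 1.71 for ANTXR2, -1.23 for CCN2, -0.89 for CBLL1, -0.44 for ANXA3 and 1.38 for LMNB1.

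The largest positive values over all genes were 3.63 for LCORL, 3.61 for IMMP2L, 3.42 for ARID1B, 3.28 for FBXL17, 3.24 for DOCK1, 3.18 for SMYD3, 3.08 for IGF1R and 3.04 for NSMCE2. LCORL averaged 6.31 ± 0.10 in ESR2 cells and 6.88 ± 0.02 in parental cells in normoxia, and 4.26 ± 0.35 in ESR2 cells and 8.46 ± 0.04 in parental cells in hypoxia (SD, n = 3 each). The largest negative values were -3.74 for CCNE2, which encodes cyclin E2, -3.49 for IL17RB, -3.38 for TP53I3, -3.04 for SLC35G1, -2.77 for TMEM38A, -2.75 for RGS2, -2.67 for SOCS4 and -2.61 for PSPC1. CCNE2 averaged 8.22 ± 0.06 in ESR2 cells and 8.37 ± 0.13 in parental cells in normoxia, and 10.11 ± 0.20 in ESR2 cells and 6.52 ± 0.11 in parental cells in hypoxia (SD, n = 3 each).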

How the results depend on the processing

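The 30 leading genes kept direction and call in all 17 alternatives run for each, the leave-one-out fits included, and ESR2 kept its own, between 0.34 with probe sets averaged and 1.04. Of the 94 other called genes named by the rule, 30 lost their call in at least 1 alternative. The 2494 genes called became 4797 probe sets when each was tested, 4437 with array weights and 3772 with only the groups compared, and 1675 to 2130 when 1 array was left out, where fewer arrays enter. The 3′ minus 5′ index as a covariate gave 3018 genes, and a fit without the 4 arrays of other groups with deviant control probes 3597. For the change with estradiol, 0 genes became 1 with probe sets averaged, 29 with array weights, and 0 to 1 when 1 array was left out, the 1 being without replicate 1 of the ESR2 cells with estradiol. The change between oxygen levels gave 14575 probe sets when each was tested and 6364 to 6881 genes when 1 array was left out. With the replicate block the counts were 2334, 0 and 6920 genes and ESR2 differed by 0.97; no count moved by over 1.5 times. Signs turned only for differences near 0 or with probe sets averaged. ESRRA (0.04) became -0.036 with quantile normalization, -0.0094 with centred arrays, -0.00098 with probe sets averaged, -0.0058 with the covariate, and -0.033 to 0.091 in leave-one-out fits. ESRRG (-0.003) became 0.023 with quantile normalization and -0.028 to 0.019 in leave-one-out fits, and PGR (-0.01) became 0.016 and -0.068 to 0.030. With probe sets averaged ESR1 became -0.032, ACACA -0.081 and TNFAIP2 -0.0040. Except where said, the cause was not tested. Dim genes, near the background of the arrays, were called least often.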
